A study of Mus musculus with 12 samples.

Results

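The comparison reported here follows cultured mouse podocytes through the first 2 h of recovery from fluid flow shear stress. It sets the 3 arrays labelled Post-2hr against the 3 arrays labelled End, which are 6 of the 12 arrays in the series, and it covers the 14996 rows of the expression table that carry 1 gene symbol, out of 23332 rows. The arrays were chosen by their titles and the rows by their annotation. The Post-2hr cells were sheared for 2 h at 2 dynes/cm2, a flow of 75 ml/min, and then kept for 2 h in their original medium. The End cells received the same shear and were harvested when it stopped. Both groups are the same conditionally immortalized podocyte line, which carries the thermosensitive tsA58 T antigen, was expanded at 33 °C with γ-interferon, was differentiated at 37 °C without it, and was used on day 14. The Post-2hr cells differed from the End cells in the absence of flow, in the return to the original medium and in the time since shear began, and these cannot be told apart in this design. The unsheared cells and the cells at 24 h of recovery did not enter the difference of the main fit. They entered the estimate of the spread and the mean level of each row over the 12 arrays. That level chose the row used for each gene and set the percentiles and the median row.

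Podocytes are the epithelial cells that wrap the glomerular capillaries, and the flow of filtrate over them exerts shear. Cells that meet such a stimulus first transcribe immediate early genes such as Fos, Junb and Egr1, whose RNAs are short lived. The ERK, NF-kB and cyclic AMP pathways then act on later genes, among them Fosl1, Plaur, chemokines and the inhibitors that limit these same pathways. FoxO transcription factors, which are kept out of the nucleus while AKT is active, serve genes of growth arrest and fasting such as Sesn1 and Fbxo32. In podocytes, shear is known to act through cyclooxygenase 2 (Ptgs2), prostaglandin E2 and its receptors.

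RNA was measured on exon arrays with 1 log2 value per gene and array, so a difference of 1 is a 2-fold change. The medians of the 6 arrays ran between 6.93 and 7.07. Replicate 1 of both groups stood apart: on the first principal component of the 6 arrays, with 47.7% of the variance, the replicate 1 arrays scored -48.1 (Post-2hr) and -36.2 (End), and the other 4 arrays scored between 13.3 and 33.0. The second component, with 18.1%, had scores of 17.1, 29.1 and 5.41 in the Post-2hr arrays and -10.6, -18.3 and -22.6 in the End arrays, so the groups did not overlap there. The main changes are therefore also given within replicate 1, and as a mean within replicates 2 and 3. Nothing in the labels states that replicates are separate cultures, and the p-values therefore cover the spread among these arrays alone, part or all of which may be technical. In bulk RNA, fewer cells of a type and less RNA per cell cannot be told apart.

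At 2 h of recovery the urokinase receptor gene Plaur was higher than at the end of shear, and Gpr146, Bmf and Runx1t1 were lower. These 4 genes are the named result of the comparison, with Vmn1r82 beside them at a dim level. With limma, 1 mean per group and Benjamini-Hochberg adjustment over all 23332 rows at a threshold of 0.05, 3 rows were higher (0.0129%) and 3 lower (0.0129%) at Post-2hr. Among rows with 1 symbol these were 2 higher (0.0133%) and 3 lower (0.0200%). Before adjustment, 389 rows were higher and 1066 lower with p under 0.05, which for 14860 genes with 1 row each is 236 higher (1.59%) and 799 lower (5.38%). The excess of lower rows depended on the array levels. After median centring 525 rows were higher and 671 lower, and after quantile normalization 544 and 611.

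Plaur encodes the receptor that holds urokinase at the cell surface and is a known target of ERK and AP-1 signalling. Its values were 9.93, 9.89 and 9.88 in the Post-2hr arrays, against 8.78, 9.08 and 8.77 in the End arrays. The groups lay far apart, and the Post-2hr arrays were almost level with each other. Plaur rose by 1.02 ± 0.10 (SE, log2), 2.03-fold with a 95% interval of 0.79 to 1.25 on the log2 scale (limma, adjusted p = 0.0196), and the same-numbered differences were 1.14, 0.80 and 1.11. The promoter window of Plaur (RefSeq, GRCm38.p6, chr7:24462233-24462532, plus strand, 250 bases before to 50 after the start) is shown because Plaur was the gene of the lists that passed with 1 mean per group. In capitals is a match to the AP-1 element TGANTCA, which begins 69 bases before the start.
Plaur: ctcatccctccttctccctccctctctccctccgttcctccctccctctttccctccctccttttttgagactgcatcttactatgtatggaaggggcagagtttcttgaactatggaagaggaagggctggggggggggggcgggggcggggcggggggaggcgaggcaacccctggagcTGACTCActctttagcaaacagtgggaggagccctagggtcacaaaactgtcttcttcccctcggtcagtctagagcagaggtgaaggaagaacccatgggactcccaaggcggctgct

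Gpr146 encodes an orphan G protein-coupled receptor. It stood at 7.37, 7.19 and 7.42 in the Post-2hr arrays, against 8.58, 8.48 and 8.49 in the End arrays. All Post-2hr values lay more than 1 log2 unit below all End values. Gpr146 fell by 1.19 ± 0.11 (SE, log2), 2.28-fold, with the smallest adjusted p of the table (limma, adjusted p = 0.0107), and its same-numbered differences were -1.21, -1.29 and -1.08. RefSeq lists 3 promoter windows for this gene. The one printed (GRCm38.p6, chr5:139389654-139389953, plus strand) is the window that holds 2 of the motifs searched, shown in capitals: a forkhead element GTAAACA that begins 63 bases before the start and an AP-1 element that begins 1 base before it.
Gpr146: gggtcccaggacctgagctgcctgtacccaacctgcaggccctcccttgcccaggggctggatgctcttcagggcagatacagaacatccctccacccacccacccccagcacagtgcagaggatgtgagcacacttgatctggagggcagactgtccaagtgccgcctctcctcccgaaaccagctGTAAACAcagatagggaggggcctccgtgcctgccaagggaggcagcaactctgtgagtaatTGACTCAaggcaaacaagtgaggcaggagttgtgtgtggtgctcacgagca

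Bmf, a BH3-only protein that can start apoptosis when it is released from the cytoskeleton, had the largest fall of the rows past the threshold. Bmf values were 8.18, 7.57 and 7.89 in the Post-2hr arrays and 9.50, 9.50 and 9.65 in the End arrays. The End arrays were close together, the Post-2hr arrays were more spread, and the groups did not overlap. Bmf fell by 1.67 ± 0.20 (SE, log2), 3.18-fold (limma, adjusted p = 0.0456), by -1.31 within replicate 1 and -1.85 within replicates 2 and 3. Runx1t1, a transcriptional corepressor of the ETO family, had 7.05, 6.71 and 7.01 in the Post-2hr arrays and 7.97, 7.75 and 7.91 in the End arrays. Runx1t1 fell by 0.95 ± 0.12 (SE, log2), 1.93-fold (limma, adjusted p = 0.0486), by nearly equal amounts in the sets of arrays (-0.91 and -0.97).

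The calls rest on few arrays. Plaur passed in 6 of the 12 fits that leave out 1 array and missed without any of Control 3, End 1, End 3 or the 3 Post-2hr arrays (adjusted p up to 0.167). Gpr146 missed without End 1, End 3 or Post-2hr 3 (up to 0.113). Bmf missed in 9 of the 12 fits (up to 0.291) and Runx1t1 in all 12 (up to 0.334). None of the 4 passed on the 6 arrays alone (0.254 to 0.539).

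A further pair of rows that passed are not followed up. Vmn1r82, a vomeronasal receptor gene that the naming rule leaves out and that is named here after its values were seen, had 4.63, 4.35 and 4.46 in the Post-2hr arrays, against 2.62, 2.80 and 3.16 in the End arrays. The row lay at the 9.75th percentile of mean level, where no detection call shows what lies above background. Its difference was 1.62 ± 0.20 (SE, log2, limma, adjusted p = 0.0456, and 0.0545 with the replicate number as a block). The other is an unnamed row with a difference of 1.23 (adjusted p = 0.0456). With the block 2 rows were higher (0.00857%) and 4 lower (0.0171%), and P2rx6, which encodes an ATP-gated ion channel subunit, was among the lower ones, with a difference of -0.79 (adjusted p = 0.0421 with the block, 0.0469 with replicate 1 set apart and 0.538 with 1 mean per group).

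**Figure D1:**
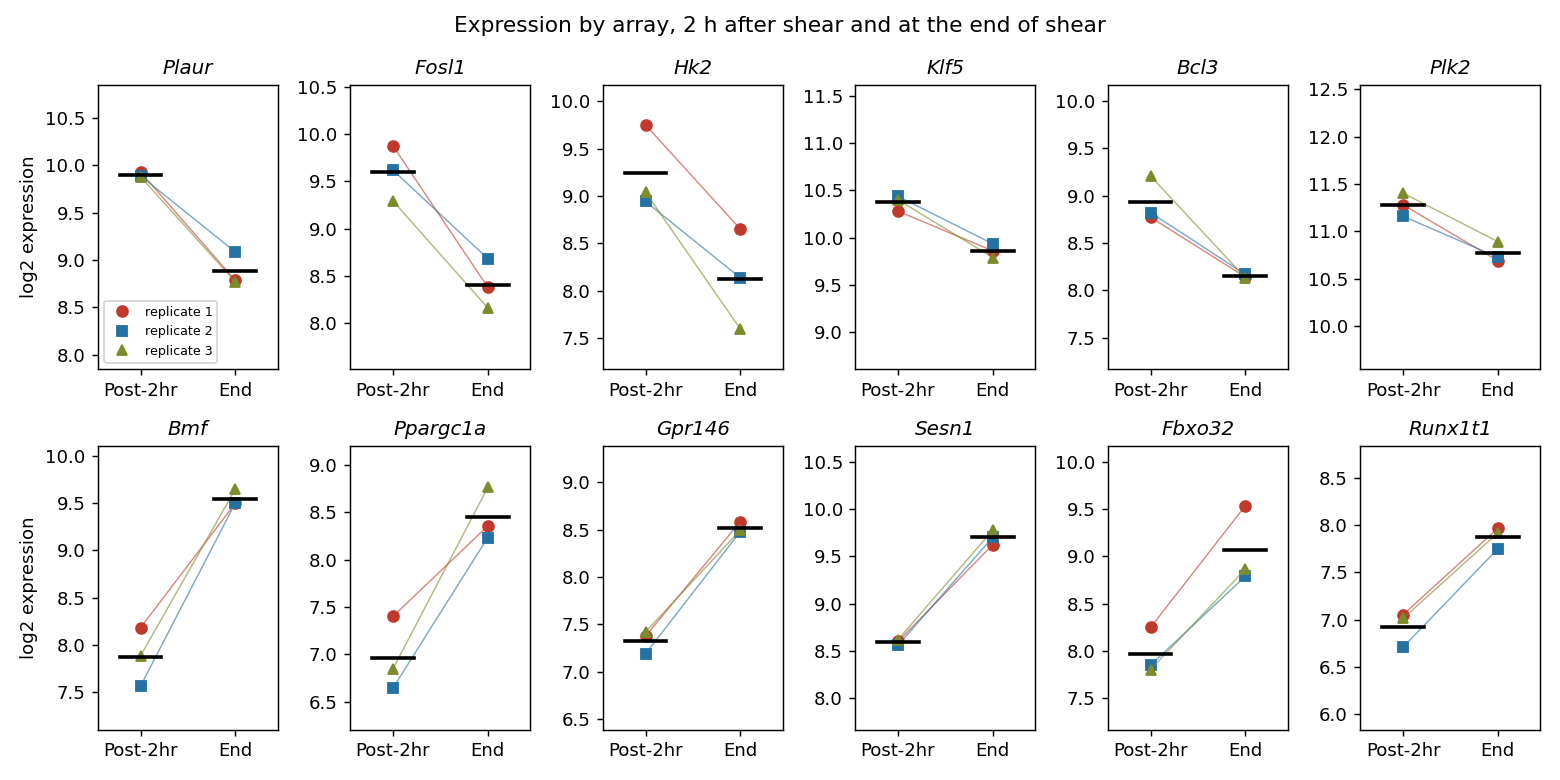
Log2 expression (vertical axis, 3 units in each panel) of 12 genes in the Post-2hr and End arrays. Symbols mark replicates 1 to 3, thin lines join arrays of the same number and bars are group means. Plaur, Bmf, Gpr146 and Runx1t1 passed the threshold with 1 mean per group; Fosl1, Hk2, Ppargc1a, Sesn1 and Fbxo32 passed with replicate 1 set apart; Klf5, Bcl3 and Plk2 passed neither.

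More genes passed when replicate 1 was given its own level in the model. Samples of the same number deviated together from their group means in both groups (correlations across rows of 0.57, 0.34 and 0.25). Numbers 2 and 3 were hardly distinct from each other. Post-2hr 3 with End 2 gave 0.22, and Post-2hr 2 with End 3 gave 0.19. With the level for replicate 1, 8 rows were higher (0.0343%) and 28 lower (0.120%), and among rows with 1 symbol 6 were higher (0.0400%) and 25 lower (0.167%). All 6 rows called with 1 mean per group were among these 36. This model was chosen with its effect on these data known. Leaving out 1 of the 6 arrays left between 0 and 5 rows higher and between 0 and 40 lower. With a block of all 3 replicate numbers, 6 of the 36 rows passed. The block left the genes named next from this model above the threshold (limma adjusted p = 0.0545 for Fosl1, Hk2, Lrrc8c, Ppargc1a, Fbxo32 and Pik3ip1, 0.0534 for Sesn1, 0.0652 for Ugdh and 0.0636 for Flcn).

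Besides Plaur and Vmn1r82, 4 genes with 1 symbol rose with replicate 1 set apart. Fosl1 (FRA-1), the AP-1 subunit that replaces Fos late in the growth response, had 9.88, 9.62 and 9.29 in the Post-2hr arrays and 8.38, 8.69 and 8.16 in the End arrays. Its groups did not overlap, and Fosl1 rose by 1.19 ± 0.18 in log2 units (SE of the 12-array fit), with an adjusted p of 0.0340 with replicate 1 set apart and 0.130 with 1 mean per group (limma). Hk2, the inducible hexokinase that commits glucose to metabolism, had 9.75, 8.94 and 9.04 at Post-2hr and 8.65, 8.14 and 7.60 at End. In each replicate number Hk2 was higher at Post-2hr, by 1.10, 0.81 and 1.44 (adjusted p = 0.0340 set apart, 0.578 with 1 mean per group, limma). Lrrc8c, a subunit of the volume-regulated anion channel, and Ugdh, the dehydrogenase that makes the UDP-glucuronate used in hyaluronan, had differences of 0.61 each, and their groups overlapped because replicate 1 was shifted in both. Within numbers the differences were even, at 0.56, 0.62 and 0.65 for Lrrc8c and 0.54, 0.63 and 0.65 for Ugdh.

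Among the genes that fell with replicate 1 set apart, Ppargc1a (PGC-1α), a coactivator of mitochondrial biogenesis, had 7.40, 6.64 and 6.85 in the Post-2hr arrays, against 8.36, 8.23 and 8.76 in the End arrays. The difference of -1.49 ± 0.20 had an adjusted p of 0.0340 set apart and 0.0596 with 1 mean per group (limma), and the size was -0.95 within replicate 1 and -1.75 within replicates 2 and 3. Sesn1, a sestrin that restrains mTORC1 and is a target of p53 and FoxO, varied little within groups. Its values were 8.60, 8.56 and 8.62 at Post-2hr and 9.62, 9.70 and 9.78 at End, and it fell by 1.11 ± 0.17 (adjusted p = 0.0310 set apart, 0.134 with 1 mean per group, limma). Fbxo32 (atrogin-1), a ubiquitin ligase gene of muscle atrophy and a FoxO target, had 8.25, 7.85 and 7.80 at Post-2hr and 9.53, 8.79 and 8.86 at End (difference -1.10, adjusted p = 0.0340 set apart, 0.211 with 1 mean per group, limma). Pik3ip1, an inhibitor of PI3-kinase, had 8.92, 8.79 and 8.67 at Post-2hr and 9.57, 9.58 and 9.65 at End (difference -0.80, adjusted p = 0.0340 set apart, 0.0647 with 1 mean per group, limma). Flcn, the folliculin gene, which acts in amino acid signalling to mTORC1, had a difference of -0.82 (adjusted p = 0.0429 set apart, limma).

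The window of Sesn1 (RefSeq, GRCm38.p6, chr10:41810324-41810623, plus strand, 1 of 2 windows of the gene) is shown because Sesn1 is on both the FoxO and the p53 list. Of the 2 windows, the one printed was chosen because it holds the forkhead element. The capitals mark a forkhead element on the minus strand, read here as TGTTTAC, which begins 22 bases after the start.
Sesn1: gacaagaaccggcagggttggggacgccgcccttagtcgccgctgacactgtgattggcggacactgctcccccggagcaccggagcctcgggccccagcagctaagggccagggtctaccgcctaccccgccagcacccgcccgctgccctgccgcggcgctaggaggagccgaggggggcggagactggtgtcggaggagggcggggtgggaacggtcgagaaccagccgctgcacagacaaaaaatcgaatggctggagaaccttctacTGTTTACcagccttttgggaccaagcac
Each motif was searched on both strands. Of 32851 promoter windows of the same length, 3.65% held the forkhead element GTAAACA and 7.81% the AP-1 element TGANTCA. Of the 25 genes lower with replicate 1 set apart, 18 had a window, 23 windows in all. The forkhead element was in 3 of them (Gpr146, Nme6 and Sesn1), the AP-1 element in 2 (Gpr146 and Zswim3), the consensus kappa-B element in 3 (Bmf, Prtg and Zbed5), against 8.46% of all windows, the cyclic AMP response element TGACGTCA in 1 (Flcn), against 1.79%, and TATAAA in 1 (P2rx6), against 13.6%. A serum response element, held by 1.63% of all windows, was in none. Of the 6 genes that rose, 5 had 1 window each, with the AP-1 element in that of Plaur and a kappa-B element in that of Lrrc8c. A match describes the letters of the window only, and the forkhead motif was added after the values were seen.

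The remaining genes that fell with replicate 1 set apart are of mixed function. The largest differences were those of Rasl11b, a RAS-like GTPase (-1.17), Prtg, a cell surface protein of the immunoglobulin superfamily (-0.98), Lypd6, a GPI-anchored modulator of Wnt signalling (-0.91), Cldn8, a tight junction claudin (-0.89), Sox8, a SOXE transcription factor (-0.87), and Zbed5 (-0.85). Rasl11b had 7.11, 8.90 and 9.20 at Post-2hr and 8.76, 9.97 and 9.99 at End, so its groups overlapped, and within numbers its differences were -1.65, -1.07 and -0.79. Atf7ip, a cofactor of the SETDB1 histone methyltransferase, had an almost constant difference (-0.74, -0.65 and -0.73; adjusted p = 0.0340 set apart and 0.134 with 1 mean per group, limma). Dnajc28, Zswim3, Adnp2 and Mtus1, also among the smallest p-values with 1 mean per group, had differences of -0.68, -0.54, -0.51 and -0.44. Sh2d3c, Tbccd1, Skida1, C1rl and Nme6 complete the named genes that passed, with differences between -0.75 and -0.44. These 5 genes, Flcn and P2rx6 lie outside the naming rule and are named after their values were seen.

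**Figure D2:**
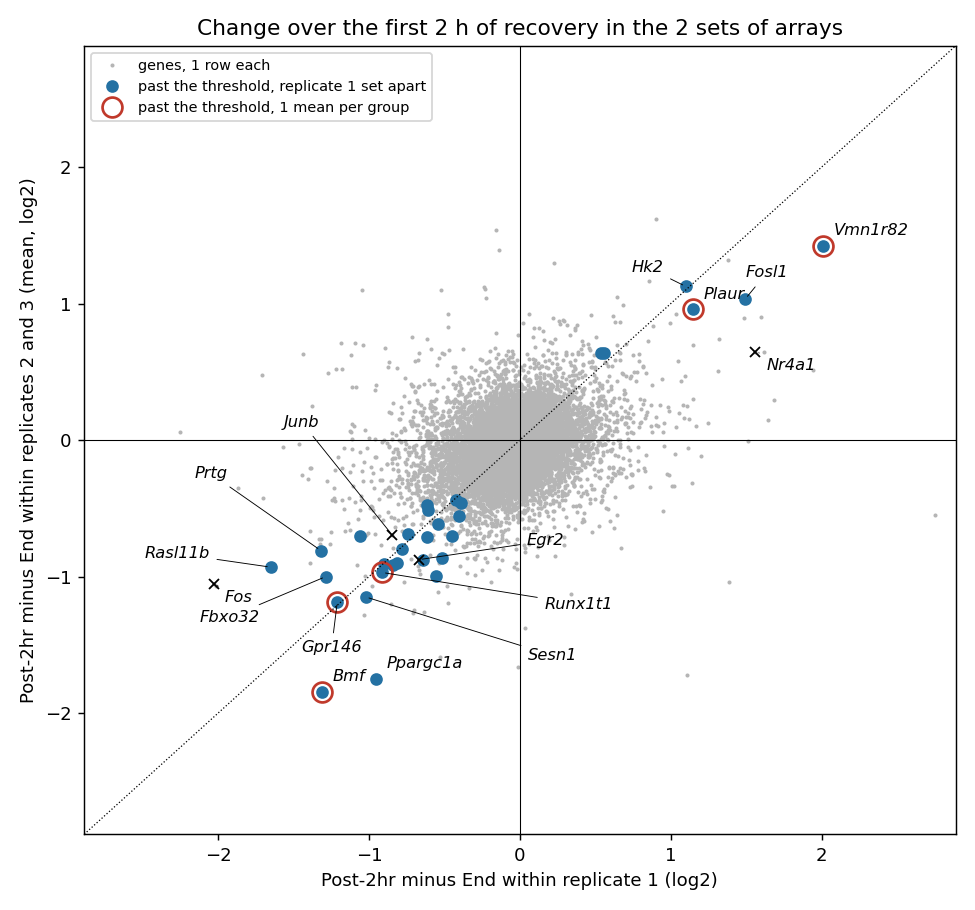
Post-2hr minus End in log2 units within replicate 1 (horizontal axis) and within replicates 2 and 3 (mean, vertical axis) for 14860 genes, 1 row each. Filled circles passed with replicate 1 set apart, open circles passed with 1 mean per group, crosses mark 4 immediate early genes that passed neither, and the dotted line is equality. The filled circles lie in the quadrants where the sets have the same sign, which their selection by that fit on the same values favours. Fos lies further from 0 in replicate 1 (-2.03) than in replicates 2 and 3 (-1.05).

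Below the threshold in both models lay a group of genes whose values were higher at Post-2hr in all arrays. These were named by the smallest p-values and are given as values. Only genes without overlap, with the same sign in both sets and a higher group mean above the median row could enter. Their separation and matching signs were thus required by the rule. Of 14860 genes, 675 (4.54%) were higher and 1379 (9.28%) lower without overlap. Klf5, a Krüppel-like factor induced by growth signals, had 10.28, 10.44 and 10.40 at Post-2hr and 9.86, 9.94 and 9.79 at End (difference 0.51, limma adjusted p = 0.211). Bcl3, an atypical IkB protein that works as a nuclear cofactor of NF-kB, had 8.77, 8.82 and 9.21 at Post-2hr and 8.14, 8.17 and 8.13 at End (0.79, adjusted p = 0.211). Plk2, a polo-like kinase gene of the immediate early type, had 11.28, 11.16 and 11.40 at Post-2hr and 10.69, 10.73 and 10.89 at End (0.51, adjusted p = 0.211). The integrin subunit gene Itga5, of the fibronectin receptor, the hyaluronan receptor gene Cd44, and Lrp8, a reelin receptor gene, had differences of 0.62, 0.61 and 0.63. Zswim4, Plekha2, a phosphoinositide-binding adaptor gene, and B4galt1, a galactosyltransferase gene, had differences of 0.59, 0.42 and 0.37. Within replicate 1 and within replicates 2 and 3 the differences were 0.42 and 0.56 for Klf5, 0.63 and 0.86 for Bcl3, 0.59 and 0.47 for Plk2, 0.45 and 0.71 for Itga5, 0.94 and 0.45 for Cd44, and 0.82 and 0.54 for Lrp8. Among genes lower in all Post-2hr arrays, Sp4, an SP-family transcription factor gene, had a difference of -0.64 (limma adjusted p = 0.189).

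The gene lists are described by counts, beside the same counts over all genes. Over 14860 genes with 1 row each, the median difference was -0.03 and 43.1% of differences were above 0. For genes above the 50th percentile of mean level the median was lower, at -0.09. The oxidative phosphorylation, actin, glycolysis and TGF-beta medians (-0.08, -0.09, -0.10 and -0.11) lay near that value. The groups did not overlap for 675 genes that were higher (4.54%) and 1379 that were lower (9.28%). All 3 same-numbered differences were above 0 for 2321 genes (15.6%) and below 0 for 4122 (27.7%). The shares without overlap and by number were not recomputed after median centring, which moved the median of all genes to 0.02. The 33 lists hold 372 measured genes, of which Plaur was higher past the threshold with 1 mean per group and none was lower. With replicate 1 set apart, Plaur, Fosl1 and Hk2 were higher and Ppargc1a, Sesn1 and Fbxo32 lower. The list medians had the same sign within replicate 1 and within replicates 2 and 3 in 27 of the 33 lists. The 6 with opposite signs were the p53, interferon and leukocyte lists, described with their values, the prostaglandin list (-0.01 and 0.14), the mRNA decay list (0.02 and -0.15) and the heat shock list (0.11 and -0.16). In the other lists, the medians were 0.23 and 0.52 for the Sprouty list, 0.34 and 0.23 for the NF-kB list, 0.17 and 0.17 for the chemokine list, 0.26 and 0.22 for the Krüppel-like factors, -0.13 and -0.34 for the FoxO-type list, -0.04 and -0.25 for the clock list and -0.14 and -0.16 for the sterol list. Members named as list examples beyond those with the smallest p were chosen after their values were seen.

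**Figure D3:**
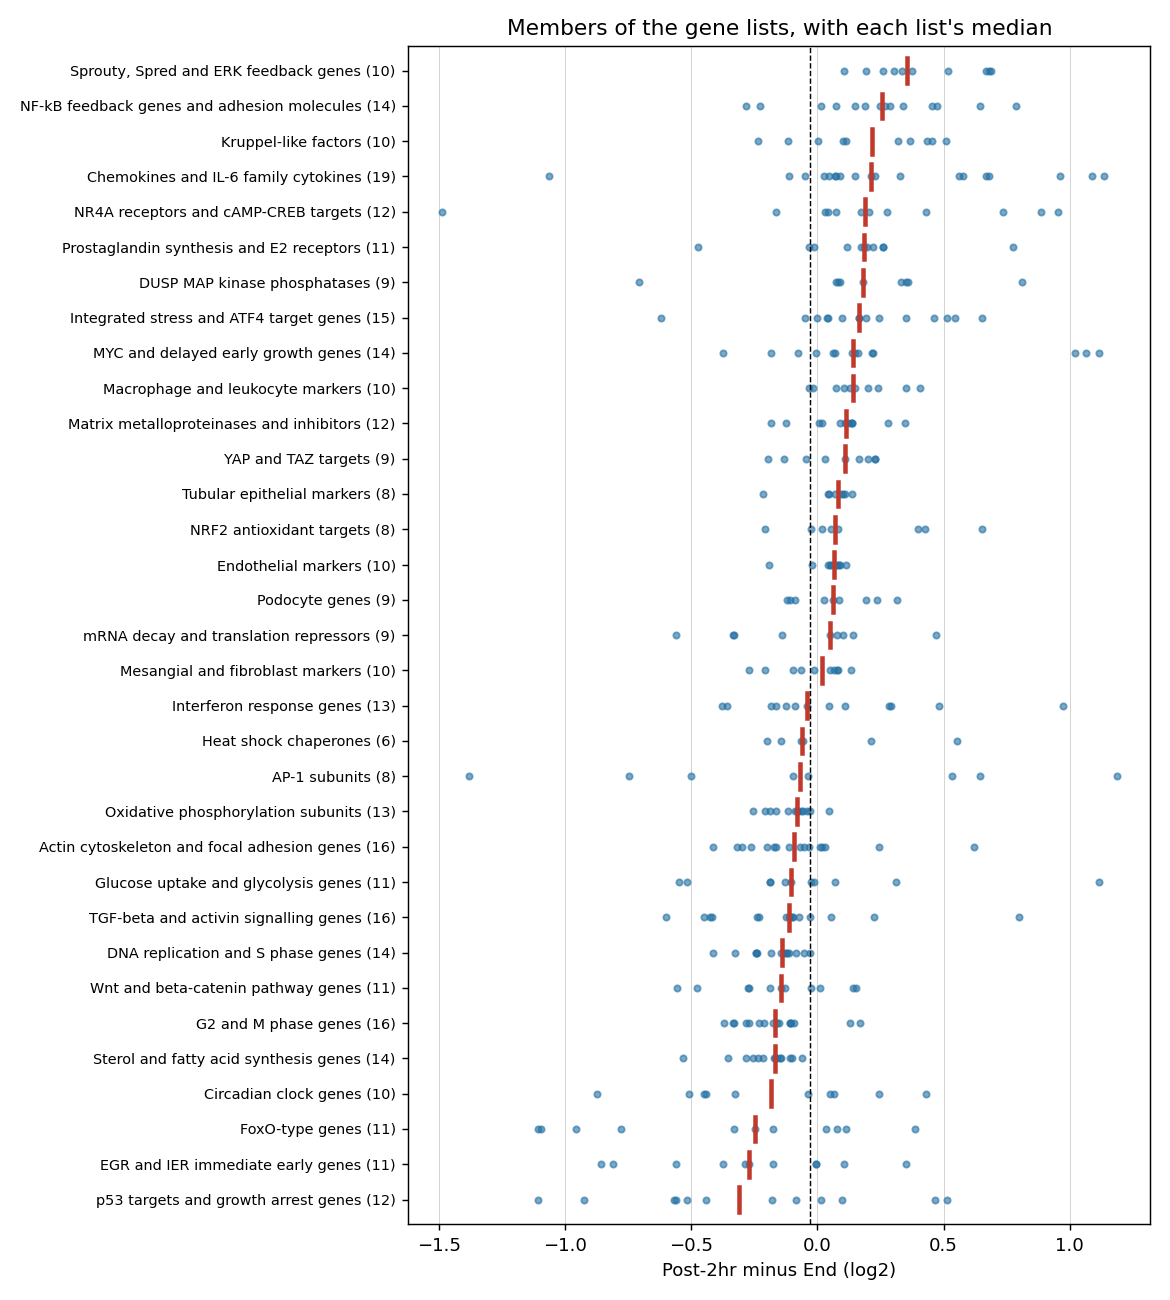
Post-2hr minus End (log2) for the measured members of 33 gene lists, 1 point per gene, with each list's median as a bar and the number measured in brackets. Lists are ordered by median, between 0.35 for Sprouty, Spred and ERK feedback genes and -0.31 for p53 targets and growth arrest genes; the dashed line is the median of all genes, -0.03.

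The immediate early genes divided by member. Of 8 AP-1 subunits, Fosl1, Fosl2 and Maff had differences of 1.19, 0.65 and 0.53, and Fos, Junb and Jun had -1.38, -0.75 and -0.50, with a list median of -0.07. Fos had 7.64, 8.0 and 9.16 at Post-2hr and 9.67, 9.45 and 9.82 at End, so the groups did not overlap, but Post-2hr replicate 3 lay near the End arrays. The Fos difference did not pass (± 0.62, SE, limma adjusted p = 0.801), and it was -2.03, -1.45 and -0.66 in replicates 1 to 3. Junb had 10.67, 10.51 and 11.17 at Post-2hr and 11.52, 11.73 and 11.33 at End (limma adjusted p = 0.582). Of 11 EGR and IER genes, 2 had means above those at End and 9 below, with a median of -0.27, and none passed. Egr1, which encodes a zinc finger factor of the early response, had 9.07, 9.70 and 10.13 at Post-2hr and 9.85, 10.00 and 9.86 at End, an overlap in both directions. Egr2 and Ier2 had mean differences of -0.81 and -0.86. In replicates 1 to 3 the values were -0.67, -1.79 and 0.04 for Egr2 and -1.87, -1.06 and 0.36 for Ier2. Btg2, an antiproliferative gene of the same wave, had 11.36, 11.81 and 12.22 at Post-2hr and 12.26, 12.41 and 12.39 at End (-0.56). Of 9 genes of mRNA decay and translational repression, 5 had positive and 4 negative differences with a median of 0.05, and Tob1, which recruits the deadenylase, had -0.34.

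**Figure D4:**
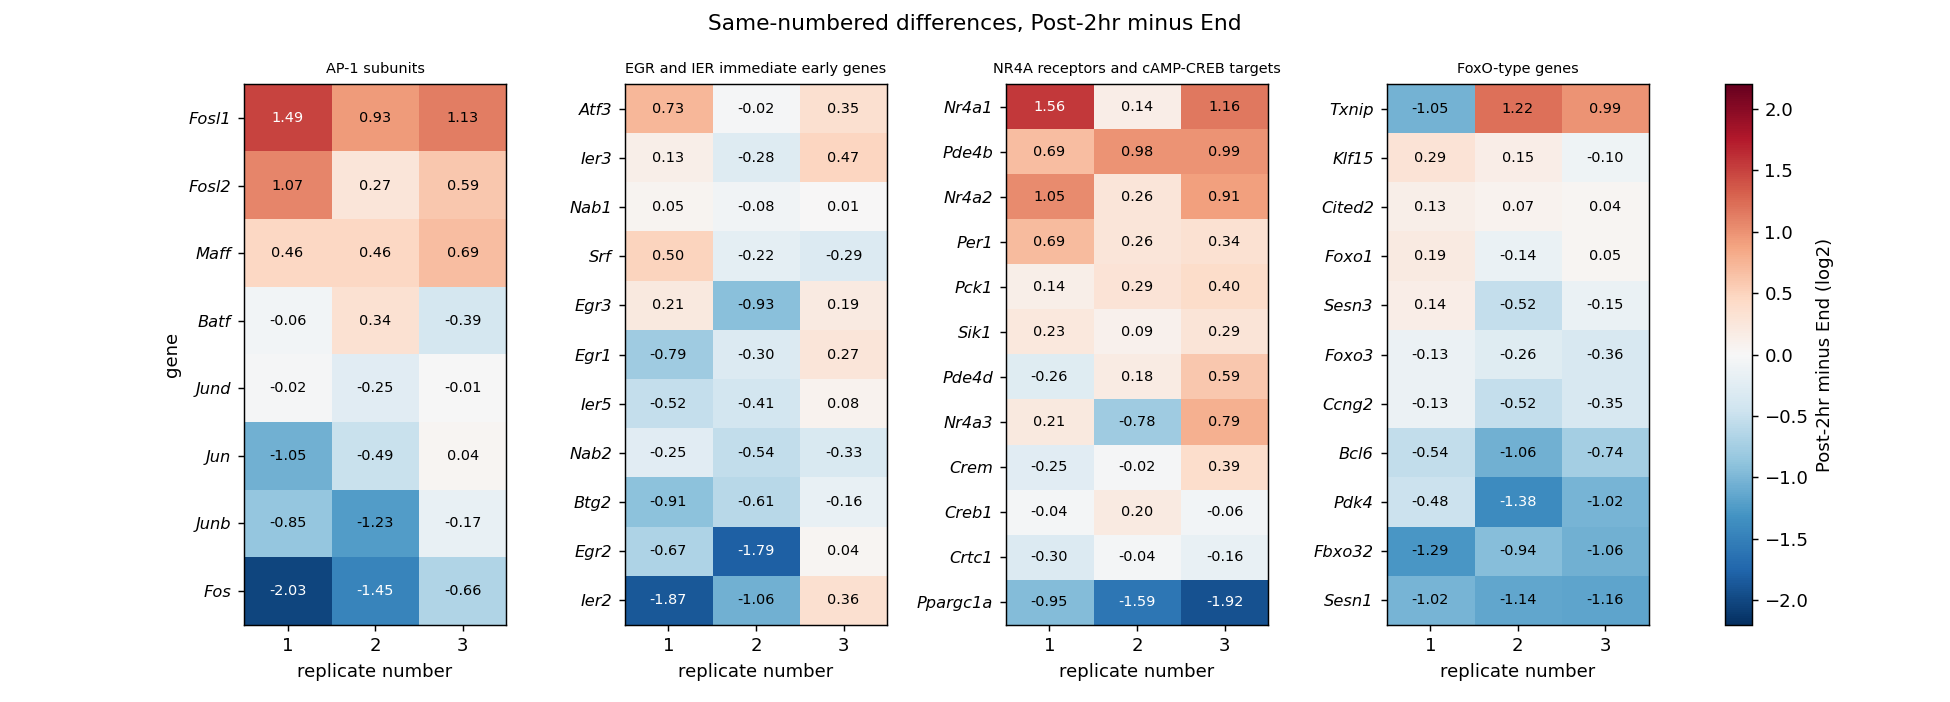
Post-2hr minus End (log2) within each replicate number for the measured members of 4 lists; red is higher and blue lower at Post-2hr, and the value is printed in each cell. Fosl1 and Pde4b are positive and Sesn1, Fbxo32, Pdk4 and Bcl6 negative in all 3 numbers, while Egr1, Ier2 and Txnip change sign between numbers.

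Feedback inhibitors of ERK signalling had mostly positive differences. All 10 measured Sprouty, Spred and related genes had a higher mean at Post-2hr (median 0.35), and 8 of the 10 were higher in all 3 replicate numbers, but 0 of 10 passed. Spry2, a Sprouty inhibitor of receptor tyrosine kinase signalling, had 8.05, 7.76 and 8.43 at Post-2hr and 7.26, 7.67 and 7.26 at End (0.69 ± 0.20, limma adjusted p = 0.565; 0.79 within replicate 1 and 0.63 within replicates 2 and 3). Spred2, which brings neurofibromin to the membrane to limit RAS, had 9.64, 9.47 and 9.61 at Post-2hr and 9.27, 8.80 and 8.63 at End (0.67, limma adjusted p = 0.582; 0.36 and 0.82 in the same sets). Of 9 DUSP phosphatase genes, which switch off MAP kinases, 8 had positive differences (median 0.18) and none passed. The negative one was Dusp2, with 6.89, 6.97 and 7.21 at Post-2hr and 8.12, 7.82 and 7.25 at End (-0.71). Dusp6, the ERK phosphatase, had 0.81 ± 0.81 with values between 8.45 and 11.29, and Dusp1 had 0.09.

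Growth genes were led by Hk2, Myc and Plaur. Of 14 genes in the MYC and delayed early list, 10 had positive differences (median 0.14), 9 of them in all 3 numbers, and Plaur was the 1 that passed with 1 mean per group. Myc had 11.94, 10.69 and 10.88 at Post-2hr and 11.08, 9.59 and 9.65 at End. These groups overlapped through replicate 1, although each number had a positive difference (0.86, 1.10 and 1.23; limma adjusted p = 0.110 set apart and 0.919 with 1 mean per group). Plau, which encodes the urokinase that Plaur binds, had a difference of 0.16, and the EGF-family ligand gene Ereg had 0.07. Of 10 Krüppel-like factor genes, 8 had positive differences (median 0.22), led by Klf5, Klf4 (0.45) and Klf6 (0.43), and none passed. Klf2, known as a flow-induced factor of endothelium, had 7.38, 8.07 and 7.82 at Post-2hr and 7.61, 7.78 and 7.87 at End, which overlapped.

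Chemokine and NF-kB genes had positive medians without a call. Of 19 chemokine and cytokine genes, 16 had positive differences (median 0.21). Ccl2, the monocyte chemoattractant gene, had 11.20, 11.73 and 11.88 at Post-2hr and 9.60, 10.94 and 10.86 at End, a difference of 1.13 with an SE of 0.88 (limma adjusted p = 0.937). Its relative Ccl7 had 9.56, 9.57 and 9.71 at Post-2hr and 8.07, 8.83 and 8.67 at End (1.09, limma adjusted p = 0.644). Cxcl1, a neutrophil chemoattractant gene, and Lif, an IL-6 family cytokine gene, had differences of 0.96 and 0.68, and the groups of these 4 genes did not overlap. Of the 3 negative differences, those of Ccl5 and Il1a were small (-0.11 and -0.05), and Cxcl12, the ligand of Cxcr4, had 8.10, 8.08 and 8.17 at Post-2hr and 9.49, 9.16 and 8.90 at End (-1.06, limma adjusted p = 0.593). Leukocyte markers had a median of 0.14 (-0.04 within replicate 1 and 0.22 within replicates 2 and 3), and their part in the chemokine values was not tested. Of 14 NF-kB feedback and adhesion genes, 12 had positive differences (median 0.26), led by Bcl3, Tnfaip3 (0.65) and Nfkbiz (0.47), and none passed. Tnfaip3, the A20 inhibitor of NF-kB, had a difference of 1.65 within replicate 1 and 0.15 within replicates 2 and 3.

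Prostaglandin and cyclic AMP genes varied between replicates. Ptgs2 had 11.80, 10.69 and 10.87 at Post-2hr and 10.48, 11.002 and 9.55 at End, overlapping groups with a difference of 0.77 ± 0.64 (limma adjusted p = 0.939) and same-numbered values of 1.31, -0.32 and 1.33. Of 11 genes of prostaglandin synthesis and E2 receptors, 8 had positive differences (median 0.19) and none passed. Among the receptors, Ptger2 and Ptger4, which raise cyclic AMP, had 0.26 each and Ptger1, which raises calcium, had -0.47. Of 12 NR4A and cyclic AMP target genes, 10 had positive differences (median 0.19). Nr4a1, an orphan nuclear receptor gene, had 10.68, 11.09 and 11.16 at Post-2hr and 9.12, 10.95 and 10.00 at End, a difference of 0.95 ± 0.64 (limma adjusted p = 0.924). Nr4a2 and the phosphodiesterase gene Pde4b, which limits cyclic AMP, had 0.74 and 0.89 without overlap (limma adjusted p = 0.526 and 0.354). Ppargc1a, on the same list as a CREB target, was the largest exception at -1.49.

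FoxO-type and growth arrest genes had negative medians. Of 11 FoxO-type genes, 7 had negative differences (median -0.25), 6 of them in all 3 numbers, and 2 were lower with replicate 1 set apart (Sesn1 and Fbxo32). Bcl6, a transcriptional repressor gene, had 9.56, 8.88 and 9.07 at Post-2hr and 10.10, 9.94 and 9.81 at End (-0.78, limma adjusted p = 0.354; -0.54 within replicate 1 and -0.90 within replicates 2 and 3). Pdk4, the kinase that blocks glucose oxidation, had 9.11, 7.16 and 7.53 at Post-2hr and 9.59, 8.54 and 8.55 at End (-0.96). Txnip, an inhibitor of glucose uptake, had opposite signs in the sets, -1.05 within replicate 1 and 1.10 within replicates 2 and 3. Of 12 p53 and growth arrest genes, 8 had negative differences, with a median of -0.31 that was 0.02 within replicate 1 and -0.33 within replicates 2 and 3, among them Gadd45g (-0.93) and the BH3-only gene Bbc3 (-0.44), while Plk2 and Gadd45a had 0.51 and 0.47. Cdkn1a, the p21 gene, had 0.10.

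In the metabolic lists Hk2 was the 1 gene past the threshold, with replicate 1 set apart. Of 11 glucose uptake and glycolysis genes, 8 had negative differences (median -0.10), and after Hk2 the sizes were led by Pdk1 (-0.55) and Pfkl (-0.52). All 14 measured sterol and fatty acid synthesis genes had negative differences (median -0.17), 13 of them in all 3 numbers, and none passed. Insig1, which holds SREBP in the endoplasmic reticulum, had -0.53, and Dhcr7, which makes cholesterol in the last step, had -0.36 (limma adjusted p = 0.530). Of 13 oxidative phosphorylation subunits, 12 had negative differences, and Sdha had -0.21. Their median of -0.08 lay near the -0.09 of all genes above the 50th percentile of mean level. Of 10 clock genes, 6 had negative differences (median -0.18), with -0.87 for Dbp, -0.51 for Bhlhe41, -0.45 for Per3 and -0.44 for Tef, output and repressor genes of the clock. Dbp had 9.45, 8.85 and 9.12 at Post-2hr and 9.94, 10.00 and 10.11 at End (limma adjusted p = 0.435), whereas Per1, an early clock gene under CREB, had 0.43.

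None of the stress or interferon genes passed. Of 15 integrated stress and ATF4 genes, 12 had positive differences (median 0.17), 9 of them in all 3 numbers, and Ddit4, an mTORC1 inhibitor, had -0.62. Of 8 NRF2 targets, 6 had positive differences (median 0.07), among them Srxn1 (0.40), and of 6 heat shock chaperones 2 did (median -0.06), with Hsph1 at 0.21. Interferon genes had 6 positive and 7 negative differences (median -0.04), and the sets disagreed: the median was -0.40 within replicate 1 and 0.16 within replicates 2 and 3. Irf1 had the smallest p of that list, with 11.10, 10.76 and 10.57 at Post-2hr and 10.04, 10.52 and 10.41 at End (0.48, limma adjusted p = 0.720).

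Cell cycle lists had negative medians. Of 16 G2 and M phase genes, 14 had negative differences, with a median of -0.17 that was -0.51 within replicate 1 and -0.01 within replicates 2 and 3, and Aurka, a mitotic kinase gene, had -0.28. All 14 measured DNA replication genes had negative differences (median -0.14), -0.16 within replicate 1 and -0.12 within replicates 2 and 3. Of these, 10 were lower in all 3 numbers, and the largest difference was that of Cdc6, a licensing factor gene (-0.41). None of the genes of either list passed.

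Signalling lists tied to differentiation had small negative medians, beside -0.09 for all genes above the 50th percentile of mean level. Within replicate 3 the medians were 0.01 for the TGF-beta list and -0.02 for the Wnt list. After median centring they were -0.06 and -0.10. Of 16 TGF-beta and activin genes, 13 had negative differences (median -0.11). Inhba, the activin A subunit gene, had 9.38, 9.83 and 9.26 at Post-2hr and 8.72, 8.77 and 8.59 at End (0.80, limma adjusted p = 0.582), whereas Smad6, which inhibits BMP signalling, had 9.33, 9.15 and 9.03 at Post-2hr and 9.90, 9.73 and 9.67 at End (-0.60, limma adjusted p = 0.314). Neither pair of groups overlapped. Of 11 Wnt and beta-catenin genes, 8 had negative differences (median -0.14), and the receptor gene Fzd7 had -0.48. Axin2, a direct target of beta-catenin, had 0.01.

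Genes of adhesion and matrix included few large differences. Of 16 actin and focal adhesion genes, 11 had negative differences (median -0.09), and Itga5 (0.62) stood apart from the others, which ranged up to 0.25 (Rnd3) and down to -0.41 (Cnn1). Of 9 YAP and TAZ targets, 6 had positive differences (median 0.11), with Ptpn14 at -0.13, and of 12 matrix metalloproteinases and inhibitors 10 did (median 0.11), with Timp1 at 0.35. None passed.

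Podocyte genes did not pass the test, and not all of the defining ones were bright. Nphs1 (nephrin), the slit diaphragm protein, had 6.65, 6.89 and 6.76 at Post-2hr and 6.55, 6.59 and 6.58 at End, near the median of all rows. The difference was 0.19 with a 95% interval of -0.01 to 0.40. Wt1, the podocyte transcription factor, had 7.22, 7.54 and 7.43 at Post-2hr and 7.34, 7.41 and 7.36 at End (0.03, interval -0.20 to 0.26). Podxl, the sialomucin of the foot processes, had 9.06, 10.09 and 10.46 at Post-2hr and 9.39, 10.20 and 10.38 at End (-0.12, interval -1.26 to 1.02). Of 9 podocyte genes, 6 had positive differences (median 0.06). Synpo and Magi2 were not analysed here.

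No marker of another cell type passed. Of 10 leukocyte markers, 8 had positive differences, with a median of 0.14 that was -0.04 within replicate 1 and 0.22 within replicates 2 and 3, and with list medians per array of 5.56 to 5.86 at Post-2hr and 5.42 to 5.56 at End, and Ptprc, the pan-leukocyte gene, had a mean of 3.99 at Post-2hr and 4.01 at End. The largest difference was that of Cd68 (0.41 ± 0.94, SE), and the list's smallest p was that of Fcer1g (0.35). Of 10 endothelial markers 8 were positive (median 0.06), with -0.19 for Emcn. Of 8 tubular markers 7 were positive (0.08), with 0.10 for Slc12a3. Of 10 mesangial and fibroblast markers 5 were positive (0.02), with -0.27 for Dcn.

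Across genes, the sets of arrays agreed in part. Within replicate 1 and within replicates 2 and 3, 62.0% of 14860 genes had the same sign. The correlation across genes of the replicate 1 difference with the mean difference of replicates 2 and 3 was 0.33, and that of replicate 2 with replicate 3 was 0.42, over genes that are not independent and share the normalization of each array. Whether the change itself differed between the sets was not tested. A difference above 1 log2 unit was found for 9 genes that were higher and 18 that were lower at Post-2hr.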

How the data were processed

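The platform was the Affymetrix Mouse Exon 1.0 ST array, with total RNA as input. The deposited log2 values give 1 number per gene and array, summarised over probes on different exons per the labels' protocols, and RMA and Partek are named in the submitters' processing notes without versions. RMA makes the arrays' distributions alike, so a change in total RNA per cell would not be seen. The deposited values were not fully equalised, with medians between 6.93 and 7.11 over the 12 arrays. Median centring moved the median difference of all genes from -0.03 to 0.02. A genome build for these values was not given in the sources used here. Detection calls and scanner files were not analysed here, and background correction could not be varied. For arrays, their number limits the precision.

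Of 23332 rows, 14996 have 1 symbol in the platform annotation, 1019 several and 7317 none; 14941 matched a RefSeq gene table (GRCm38.p6), which changed 0 symbols. Where a symbol had several rows (135 symbols), the row with the highest mean was used, giving 14860 genes. limma 3.58.1 (R 4.3.3, lmFit and eBayes) fitted 1 mean per group to all 12 arrays, with 8 residual and 2.16 prior degrees of freedom, and tested Post-2hr minus End on all rows with Benjamini-Hochberg adjustment at 0.05. Adjusted p-values in the text are from limma. Errors are standard errors of that fit. The steps were tested on simulated data.

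The members, the 33 gene lists and the naming rule were chosen with earlier results of these data known. The rule took, in each direction, up to 12 genes past the threshold without overlap, filled by the smallest p among genes whose sign matched within replicate 1 and within replicates 2 and 3, with a higher group mean above the median row, plus 14 always-named genes, list members past the threshold or with the smallest p, and up to 12 genes in each direction past the threshold with replicate 1 set apart; predicted and vomeronasal genes were left out. Fosb has no row with 1 symbol.

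The main fit had no term for the replicate number, so its p-values are not paired. In the block fits and the same-numbered differences, the replicate numbers were taken as pairing the samples. The reason was that deviations of same-numbered Post-2hr and End arrays from their group means correlated at 0.57, 0.34 and 0.25 across rows. For different numbers these correlations were -0.42 to 0.22, and the positive ones (0.22 and 0.19) were between replicates 2 and 3. Matching 2 with 2 and 3 with 3 therefore rests on small differences. Deviations from a group mean sum to 0 in each row, which makes some of these correlations negative by construction. Alternatives were the replicate number as a block, replicate 1 set apart (a term with 2 levels), replicates 2 and 3 only, the 6 arrays alone, quantile normalization, median centring, dropping rows below the 25th or the 50th percentile of mean level, an intensity trend, testing rows with 1 symbol alone, an ordinary linear model, array weights and each array left out. Promoter windows are RefSeq's.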

Additional observations from a re-analysis of the deposited data

How the results depend on the processing

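With 1 mean per group 3 rows were higher and 3 lower at Post-2hr. Higher rows numbered 8 with replicate 1 set apart, 1 with an intensity trend, 1 with an ordinary linear model and 106 with array weights. Lower rows numbered 28 with replicate 1 set apart, 5 above the 25th percentile, 5 above the 50th percentile, 5 among rows with 1 gene symbol only and 272 with array weights. The counts were 0 and 0 (limma) on replicates 2 and 3 only, on the 6 arrays compared, and on these with the replicate block. The array weights ranged between 0.339 (Post-2hr replicate 1) and 5.86 (Control replicate 2). Post-2hr replicate 3 had 5.27 and Post-2hr replicate 2 had 0.645, so in that fit the Post-2hr mean rests mostly on replicate 3. Leaving out 1 of the 12 arrays gave 0 to 2 higher and 0 to 5 lower rows; with replicate 1 set apart, leaving out 1 of the 6 arrays, an alternative chosen after seeing the data, gave 0 to 5 and 0 to 40. With the replicate block, which pairs the samples by number, 2 rows were higher and 4 lower; 5 of the 6 rows were shared, Vmn1r82 was lost and P2rx6 gained, and no other call changed. Quantile normalization gave 4 higher and 2 lower rows, and median centring 3 and 4. The rows with an unadjusted p under 0.05, 389 higher and 1066 lower, became 525 and 671 after median centring.

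Of 1738 values of 70 named genes under 25 alternatives, 1604 kept their direction and side of the threshold, 62 lost and 64 gained a call, and 8 changed sign. Most of these genes had no call to lose, so the total does not measure how stable the calls were. The call was lost in 17 of 25 alternatives for Runx1t1, 14 for Bmf, 9 for Plaur and 6 for Gpr146, and in 16 of 23 for Vmn1r82. The changes of sign were of genes that did not pass: Ptger4 between -0.010 and 0.49, Egr1 between -0.52 and 0.011, Wt1 between -0.043 and 0.12 and Podxl between -0.42 and 0.28 with 1 array left out, and Egr1 (0.11), Podxl (0.19) and Aurka (0.087) with array weights. Plaur, Gpr146 and Bmf also lost their calls as given with their values; Bmf did so after quantile normalization (adjusted p = 0.0612) and, like Runx1t1, in the ordinary linear model (0.0659), and Runx1t1 with the trend (0.0528). List medians changed sign in 24 of 825 cases, for the interferon list under 6 alternatives, median centring and quantile normalization among them; for the G2 and M phase list with array weights and without End replicate 3 or Post-2hr replicate 1; for the mRNA decay, NRF2 and mesangial lists under 3 alternatives each; and once each for the integrated stress (without Post-2hr replicate 1), YAP and TAZ, podocyte, metalloproteinase, actin and tubular lists. The causes were not tested.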
